A study of Mus musculus with 22 samples.

Results

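Adding paclitaxel to JQ1 and an antibody against PD-L1 was examined in the CD45-positive cells of EMT6 tumours, a mouse mammary carcinoma grown in immunocompetent hosts. The comparison set 2 libraries of the 3-drug group (JQ1, paclitaxel and anti-PD-L1) against 2 libraries of the group given JQ1 plus anti-PD-L1. Every gene with at least 1 FPKM (a level scaled to the length of the gene and the size of the library) in at least 2 of the 10 CD45-positive libraries was kept, which gave 10340 of the 24353 genes listed. The hosts were wild-type BALB/c mice aged 5 to 6 weeks that carried 200000 injected cells in each inguinal fat pad, and treatment began once tumours could be felt. JQ1 was gavaged daily at 50 mg/kg, and paclitaxel and the antibody, clone 10F.9G2, were injected into the peritoneum at 10 mg/kg each, 2 times a week. JQ1 was common to both groups and to 2 further ones drawn on here, JQ1 plus paclitaxel and JQ1 alone, each with 2 libraries, as was vehicle. No group had paclitaxel without JQ1, so the comparison measures paclitaxel on top of the other 2 agents only.

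Paclitaxel binds beta-tubulin, stabilises microtubules and halts dividing cells in mitosis. JQ1 displaces BET proteins, which read acetylated chromatin, and an antibody against PD-L1 removes an inhibitory signal that tumour and myeloid cells give to T cells. The CD45-positive cells of such tumours are macrophages, monocytes, neutrophils, dendritic cells and lymphocytes. Interferon gamma from T and NK cells acts on the myeloid cells in part through IRF1, and it switches on guanylate-binding proteins, the chemokine CXCL9 and antigen presentation, whereas monocytes and alternatively activated macrophages make matrix proteins, growth factors and chemokines that draw in more myeloid cells.

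The libraries came from tumours whose dissociated cells were separated with beads against CD45. Both JQ1 plus anti-PD-L1 libraries carry a single title code, with a right and a left tumour, whereas the 3-drug libraries carry 2 codes. Libraries 1 and 2 of a group are numbered in the order in which its values are given. The JQ1 and vehicle pairs also carry 1 code each, and the JQ1 plus paclitaxel pair carries 2. The p-values rest on a spread between tumours pooled over all 5 groups. That spread mixes pairs that share a code with pairs that do not. The labels do not spell the codes out, and treatment and code cannot be told apart. Depth read from the steps between low values was 1.715 and 1.003 in the 3-drug libraries, against 0.739 and 0.671 with JQ1 plus anti-PD-L1, relative to a common mean. The 3-drug libraries were thus the deeper ones, and the part of depth in the results was not tested beyond a fit with depth as a covariate. Log2 values of the 2 libraries correlated across genes at 0.945 in the 3-drug group and 0.977 with JQ1 plus anti-PD-L1. Ptprc, which encodes CD45 itself, had 73.6 and 46.6 FPKM in the 3-drug libraries, against 49.4 and 46.2 FPKM with JQ1 plus anti-PD-L1, above the 3.29 to 8.65 FPKM of the CD45-negative fraction of the same groups. Krt8, a keratin gene of the tumour cells, had 16.8 and 4.36 FPKM in the 3-drug libraries, against 3.06 and 24.5 FPKM with JQ1 plus anti-PD-L1. Col1a1, a collagen gene of fibroblasts, had 3.88 and 5.84 FPKM in the 3-drug libraries, against 7.72 and 15.5 FPKM with JQ1 plus anti-PD-L1. Traces of both cell types were thus present in all 4 libraries. Since RNA was measured in bulk, fewer cells of a type and less RNA per cell cannot be told apart in any value that follows.

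A single gene of 10340 passed limma's threshold of adjusted p under 0.05, which is 0.00967% of those tested, and it fell. At an unadjusted p under 0.05 stood 920 genes, of which 501 were higher (4.85%) and 419 lower (4.05%) in the 3-drug libraries. In 2654 genes both 3-drug libraries were higher than both others (25.7%) and in 1805 both were lower (17.5%), and these shares are the background for the counts given below. Over all genes tested the median log2 difference was 0.079, where differences are on the log2(FPKM + 1) scale, which understates changes of low genes. Differences of at least 1 on that scale were seen for 312 genes, 115 higher and 197 lower. None of the gene groups described below holds a gene that passed the threshold, so they are given by values, counts and medians.

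The gene that fell was Mir6236, an annotated microRNA locus of 123 bases. Its mature sequence in RefSeq (GRCm38.p6, chr9:110281353-110281371, plus strand) is shown because it names what the locus encodes, with the seed, bases 2 to 8, in capitals:
miR-6236: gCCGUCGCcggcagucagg
At this locus were 88.7 and 67.9 FPKM in the 3-drug libraries, against 908 and 839 FPKM with JQ1 plus anti-PD-L1. Both 3-drug libraries lay far under both others, and under all 6 remaining CD45-positive libraries, which ranged over 326 to 926 FPKM, with a log2 difference of -3.47 ± 0.26 (SE, limma adjusted p = 0.00347). When the drug was added to JQ1 without the antibody the libraries overlapped, with 655 and 477 FPKM with JQ1 plus paclitaxel, against 926 and 578 FPKM with JQ1. The difference between the 2 paclitaxel effects was -3.09 ± 0.37 (SE, limma adjusted p = 0.166). The low-input kit named in the labels primes on poly(A) tails, so the value counts longer RNA across the locus and not the mature microRNA, and in a locus this short each fragment weighs heavily in FPKM. Rn45s, the ribosomal RNA precursor, was lower in the same libraries, with 128 and 104 FPKM in the 3-drug libraries, against 308 and 406 FPKM with JQ1 plus anti-PD-L1. Its log2 difference was -1.61 ± 0.30 (SE, limma adjusted p = 0.424). The groups did not overlap in Rn45s either, and the part of ribosomal RNA carried into the libraries was not tested. The call was lost when 1 JQ1 plus anti-PD-L1 library was left out (adjusted p = 0.0508 without library 1 and 0.0798 without library 2) and with depth as a covariate (adjusted p = 0.16). The difference itself stayed between -3.28 and -3.66 in all of these and in the other fits with a library left out. No filter on low values and a single value per title code also ended the call (adjusted p = 0.0607 and 0.323).

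**Figure D1:**
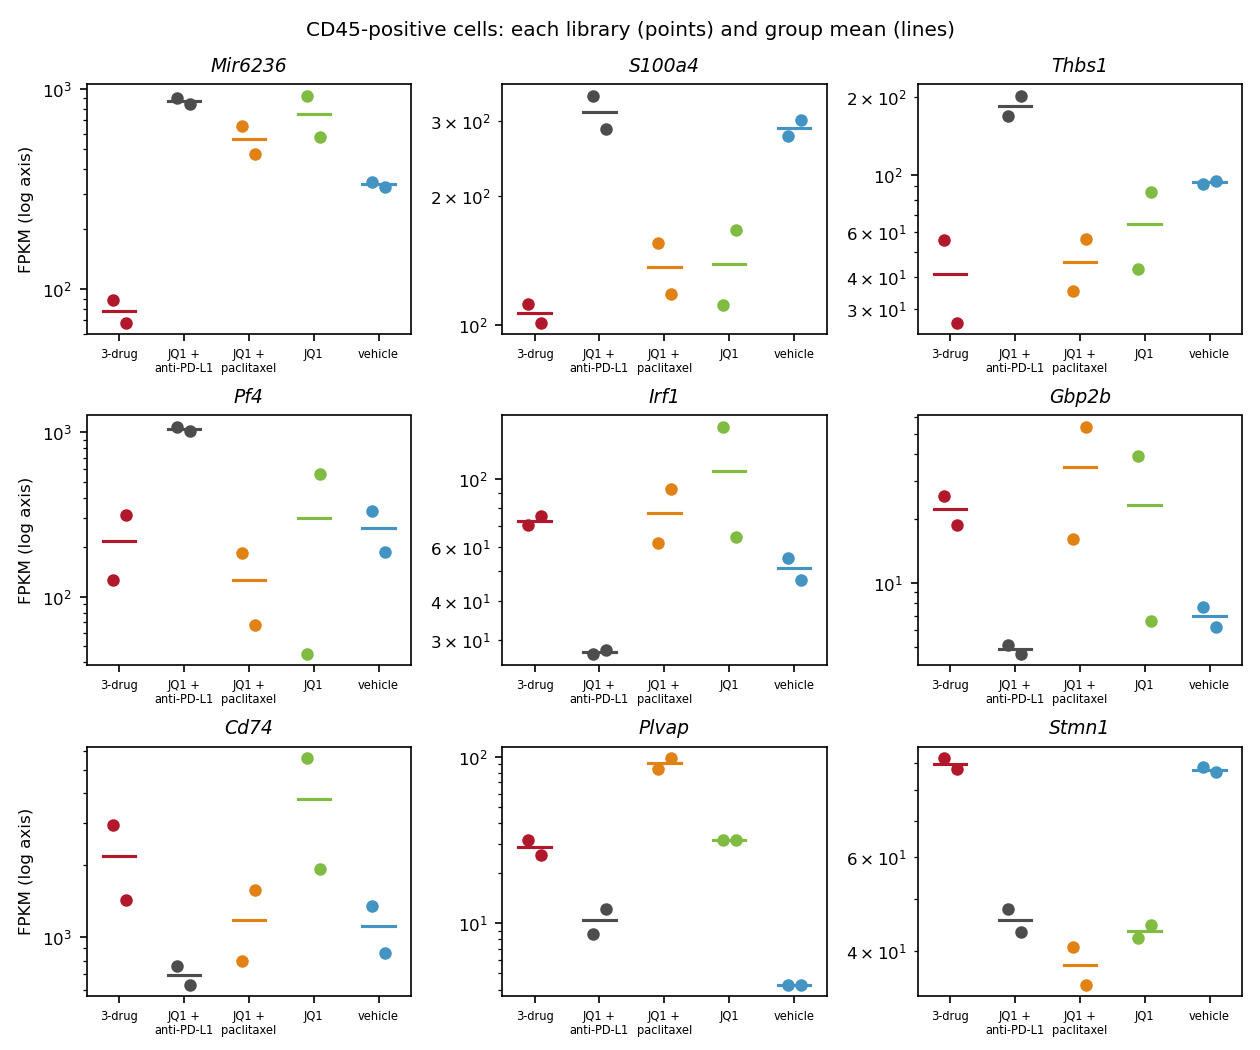
FPKM (log axis, scaled for each gene) of 9 genes in the 5 CD45-positive groups, with a point for each library and a line at each group mean. Mir6236 is lowest in the 3-drug libraries, S100a4, Thbs1 and Pf4 are highest with JQ1 plus anti-PD-L1 among the groups of the comparison, and Irf1, Gbp2b, Cd74, Plvap and Stmn1 are higher in both 3-drug libraries than in both JQ1 plus anti-PD-L1 libraries.

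Below the threshold, the genes of smallest p that were higher in the 3-drug libraries included vascular and cytoskeletal genes. Plvap, which forms the diaphragms of endothelial pores, had 31.5 and 25.7 FPKM in the 3-drug libraries, against 8.57 and 12.3 FPKM with JQ1 plus anti-PD-L1, a log2 difference of 1.39 ± 0.22 (SE, limma adjusted p = 0.254). Stmn1 encodes stathmin, which binds free tubulin and shortens microtubules, and it had 92.0 and 87.5 FPKM in the 3-drug libraries, against 47.9 and 43.4 FPKM with JQ1 plus anti-PD-L1. Its log2 difference was 0.96 ± 0.17 (SE, limma adjusted p = 0.424), and its 3-drug level was near that of vehicle, 88.5 and 86.5 FPKM. Cd81, a tetraspanin of immune and other cells, had 124 and 137 FPKM in the 3-drug libraries, against 49.8 and 66.2 FPKM with JQ1 plus anti-PD-L1, and its difference was 1.17 ± 0.22 (SE, limma adjusted p = 0.424). Psip1, a chromatin-bound transcription coactivator, had 12.4 and 17.1 FPKM in the 3-drug libraries, against 6.15 and 5.11 FPKM with JQ1 plus anti-PD-L1. Ranbp9, a scaffold of a ubiquitin ligase complex, showed the widest gap of these genes, with 9.84 and 13.3 FPKM in the 3-drug libraries, against 1.71 and 2.52 FPKM with JQ1 plus anti-PD-L1. Its difference was 2.01 ± 0.39 (SE, limma adjusted p = 0.445). Cpq, a secreted peptidase of blood plasma, had 30.3 and 20.1 FPKM in the 3-drug libraries, against 6.77 and 9.77 FPKM with JQ1 plus anti-PD-L1. Naaa, which cleaves lipid amides in lysosomes, had 36.7 and 36.4 FPKM in the 3-drug libraries, against 12.6 and 15.8 FPKM with JQ1 plus anti-PD-L1. Serpine2, a serine protease inhibitor, had 6.79 and 7.53 FPKM in the 3-drug libraries, against 2.27 and 1.67 FPKM with JQ1 plus anti-PD-L1. In all 8 of these genes the lower 3-drug library stood above the higher JQ1 plus anti-PD-L1 library, which was a condition of their choice, and their smallest adjusted p was 0.254. Rpl26, which encodes a ribosomal protein that every cell uses, had 8.52 and 3.65 FPKM in the 3-drug libraries, against 0.000749 and 0.000861 FPKM with JQ1 plus anti-PD-L1. Values that near 0 in such a gene can be failed estimates, so no fold is given for it.

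On the lower side S100a4, a calcium-binding protein of motile monocytes and macrophages, had 112 and 101 FPKM in the 3-drug libraries, against 343 and 287 FPKM with JQ1 plus anti-PD-L1, a log2 difference of -1.55 ± 0.23 (SE, limma adjusted p = 0.247). Its 2 vehicle libraries, at 277 and 302 FPKM, lay with those of JQ1 plus anti-PD-L1, and the JQ1 and JQ1 plus paclitaxel libraries lay nearer to the 3-drug ones. Thbs1, a matrix glycoprotein that activates TGF-beta and restrains vessel growth, had 55.9 and 26.5 FPKM in the 3-drug libraries, against 169 and 202 FPKM with JQ1 plus anti-PD-L1. Its difference was -2.23 ± 0.41 (SE, limma adjusted p = 0.424), and the JQ1 plus anti-PD-L1 libraries were the 2 highest of all 10. Tnfsf13, the B cell survival factor APRIL, had 1.60 and 1.28 FPKM in the 3-drug libraries, against 5.20 and 7.46 FPKM with JQ1 plus anti-PD-L1. Agpat1, an enzyme of phospholipid synthesis, had 2.52 and 2.57 FPKM in the 3-drug libraries, against 8.06 and 7.44 FPKM with JQ1 plus anti-PD-L1. Adamtsl4, a secreted matrix protein, had 1.78 and 1.80 FPKM in the 3-drug libraries, against 6.39 and 8.15 FPKM with JQ1 plus anti-PD-L1. In each of these 3 genes the 3-drug libraries lay close together and under both others. The histone gene Hist1h4d had 15.8 and 8.69 FPKM in the 3-drug libraries, against 31.0 and 36.6 FPKM with JQ1 plus anti-PD-L1, but near-identical H4 copies share its reads, which makes that value uncertain. The differences of these 4 genes lay between -1.57 and -1.30, with adjusted p of 0.424 to 0.49.

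Genes of the interferon gamma response were the group with the highest median, 1.28 over 30 tested genes of 31 listed, against 0.079 over all genes. None passed limma's adjusted threshold, 9 had an unadjusted p under 0.05, all higher, and in 22 both 3-drug libraries exceeded both others, with 0 the other way. The promoters of 3 of these genes are shown because they hold the elements through which interferon acts. The GAS was searched as TTCNNNGAA, and the ISRE, bound by IRF proteins, as GAAA, any 2 bases and GAAA again. Both strands were searched, and matches are in capitals. Each stretch is 250 bases before to 50 after the start of the gene in RefSeq (GRCm38.p6, plus strand).
Irf1, chr11:53769764-53770063, a GAS match: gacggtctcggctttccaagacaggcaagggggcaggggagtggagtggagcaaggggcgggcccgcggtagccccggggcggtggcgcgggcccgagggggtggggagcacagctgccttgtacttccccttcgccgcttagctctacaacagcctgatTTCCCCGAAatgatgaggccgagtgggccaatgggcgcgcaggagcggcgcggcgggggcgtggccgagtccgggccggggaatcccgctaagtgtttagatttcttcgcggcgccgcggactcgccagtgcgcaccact
Gbp2b, chr3:142594597-142594896, an ISRE match read on the other strand: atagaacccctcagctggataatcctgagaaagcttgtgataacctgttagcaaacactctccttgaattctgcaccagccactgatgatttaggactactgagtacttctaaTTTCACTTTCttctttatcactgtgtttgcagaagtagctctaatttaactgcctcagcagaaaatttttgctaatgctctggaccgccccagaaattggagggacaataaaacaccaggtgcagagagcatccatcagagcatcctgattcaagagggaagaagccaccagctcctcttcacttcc
Igtp, chr11:58199306-58199605, a GAS and an ISRE match next to each other: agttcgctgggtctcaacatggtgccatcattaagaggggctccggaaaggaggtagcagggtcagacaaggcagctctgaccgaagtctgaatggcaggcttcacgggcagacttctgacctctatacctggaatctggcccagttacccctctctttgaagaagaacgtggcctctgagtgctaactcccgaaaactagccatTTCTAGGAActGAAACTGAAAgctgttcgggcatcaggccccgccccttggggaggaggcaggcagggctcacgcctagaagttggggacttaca
Over the list, 17 genes had a promoter in that table, of which 7 held the GAS letters (41.2%) and 13 the ISRE letters (76.5%), whereas of 27018 genes with a promoter 9.55% and 3.99% did. A match describes the letters and is no evidence of binding.

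Irf1, the transcription factor that carries the response forward, had 70.8 and 75.4 FPKM in the 3-drug libraries, against 26.9 and 27.8 FPKM with JQ1 plus anti-PD-L1. The 2 groups were far apart and tight within themselves, with a log2 difference of 1.39 ± 0.35 (SE, limma adjusted p = 0.496), and the JQ1 plus anti-PD-L1 libraries were the lowest of all 10. Gbp2b, a guanylate-binding GTPase that attacks the vacuoles of microbes, had 25.4 and 18.7 FPKM in the 3-drug libraries, against 5.12 and 4.62 FPKM with JQ1 plus anti-PD-L1. Igtp, an immunity-related GTPase, had 18.7 and 13.5 FPKM in the 3-drug libraries, against 5.01 and 4.08 FPKM with JQ1 plus anti-PD-L1, and here too the groups did not overlap. Iigp1, of the same family, had 8.96 and 17.4 FPKM in the 3-drug libraries, against 0.637 and 1.27 FPKM with JQ1 plus anti-PD-L1, the widest gap of the list. Its difference was 2.81 ± 0.65 (SE, limma adjusted p = 0.49), although Iigp1 may share reads with the related gene Gm4951. Gbp4 had 26.3 and 8.92 FPKM in the 3-drug libraries, against 2.21 and 1.80 FPKM with JQ1 plus anti-PD-L1. Reads of the Gbp genes may likewise be shared among copies. Cxcl9, the ligand of CXCR3 that draws in activated T cells, had 16.0 and 5.32 FPKM in the 3-drug libraries, against 1.29 and 0.799 FPKM with JQ1 plus anti-PD-L1. With 2.35 ± 0.78 (SE, limma adjusted p = 0.496) its difference was the widest among the chemokine genes that were higher. Cxcl10, another chemokine gene of this list, stood at a higher level and overlapped between the groups. It had 45.9 and 37.3 FPKM in the 3-drug libraries, against 41.3 and 47.7 FPKM with JQ1 plus anti-PD-L1. The difference of Cxcl10 was -0.10 ± 0.48 (SE, limma adjusted p = 0.958). For Ifng, the gene of interferon gamma itself, values were at the limit of detection, 0.950 and 0.543 FPKM in the 3-drug libraries, against 0.420 and 0.461 FPKM with JQ1 plus anti-PD-L1. PD-L1 is encoded by Cd274, another target of the pathway, which overlapped between the groups, with 89.6 and 19.8 FPKM in the 3-drug libraries, against 22.2 and 29.7 FPKM with JQ1 plus anti-PD-L1. Here 3-drug library 1 was the highest of the 4 and library 2 the lowest.

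The summed level of the interferon gamma list was 656 and 358 FPKM in the 3-drug libraries, against 228 and 220 FPKM with JQ1 plus anti-PD-L1. Both JQ1 plus anti-PD-L1 sums lay under those of every other CD45-positive library, since vehicle had 312 and 234 FPKM, JQ1 plus paclitaxel 340 and 847 FPKM and JQ1 1018 and 229 FPKM. The JQ1 and JQ1 plus paclitaxel pairs were each split widely, and the median log2 difference of the list between them was 0.12. With each of the 4 libraries left out in turn the median of the list ranged over 0.86 to 1.59, and with relative depth as a covariate it was 2.18.

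Genes of antigen presentation were also higher in the 3-drug libraries by median and count, while none passed the threshold. Of 21 class I genes, which display peptides to CD8 T cells, 15 did not overlap between the groups, all higher, 7 had an unadjusted p under 0.05, and the median log2 difference was 0.58, or 0.33 without 3-drug library 1. H2-D1, a classical class I heavy chain, had 2415 and 2159 FPKM in the 3-drug libraries, against 1402 and 1295 FPKM with JQ1 plus anti-PD-L1, a difference of 0.76 ± 0.21 (SE, limma adjusted p = 0.496). H2-K1, the other one, had 804 and 690.2 FPKM in the 3-drug libraries, against 463 and 445 FPKM with JQ1 plus anti-PD-L1. B2m, their light chain, had 2329 and 1590.3 FPKM in the 3-drug libraries, against 1292 and 1237 FPKM with JQ1 plus anti-PD-L1, and all 3 genes were apart between the groups. Reads of the H2-D, H2-K, H2-Q and H2-L genes may be shared among these near-identical copies.

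Class II genes, which display peptides to CD4 T cells and are expressed by dendritic cells, B cells and activated macrophages, had a median of 1.10 over 12 tested genes. The groups did not overlap in 11 of the 12, all higher, and 4 had an unadjusted p under 0.05. Ciita, the master activator of class II genes, had 1.56 and 1.07 FPKM in the 3-drug libraries, against 0.420 and 0.425 FPKM with JQ1 plus anti-PD-L1, a difference of 0.69 ± 0.21 (SE, limma adjusted p = 0.496). Cd74, the invariant chain that escorts class II molecules, had 2931 and 1431 FPKM in the 3-drug libraries, against 759 and 632 FPKM with JQ1 plus anti-PD-L1. Its log2 difference was 1.56 ± 0.55 (SE, limma adjusted p = 0.523), with 3-drug library 1 at more than the level of any other library but 1 of the JQ1 group. H2-Aa, an alpha chain, had 648 and 322 FPKM in the 3-drug libraries, against 229 and 207 FPKM with JQ1 plus anti-PD-L1. H2-Ab1, which encodes its partner chain, had 1148 and 540.1 FPKM in the 3-drug libraries, against 349 and 325 FPKM with JQ1 plus anti-PD-L1. In the class II list 3-drug library 1 carried much of the gap: the median was 0.54 without it and 1.67 without library 2. B cell and dendritic cell markers, the other sources of class II, are given below, and their part in these values was not tested.

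**Figure D2:**
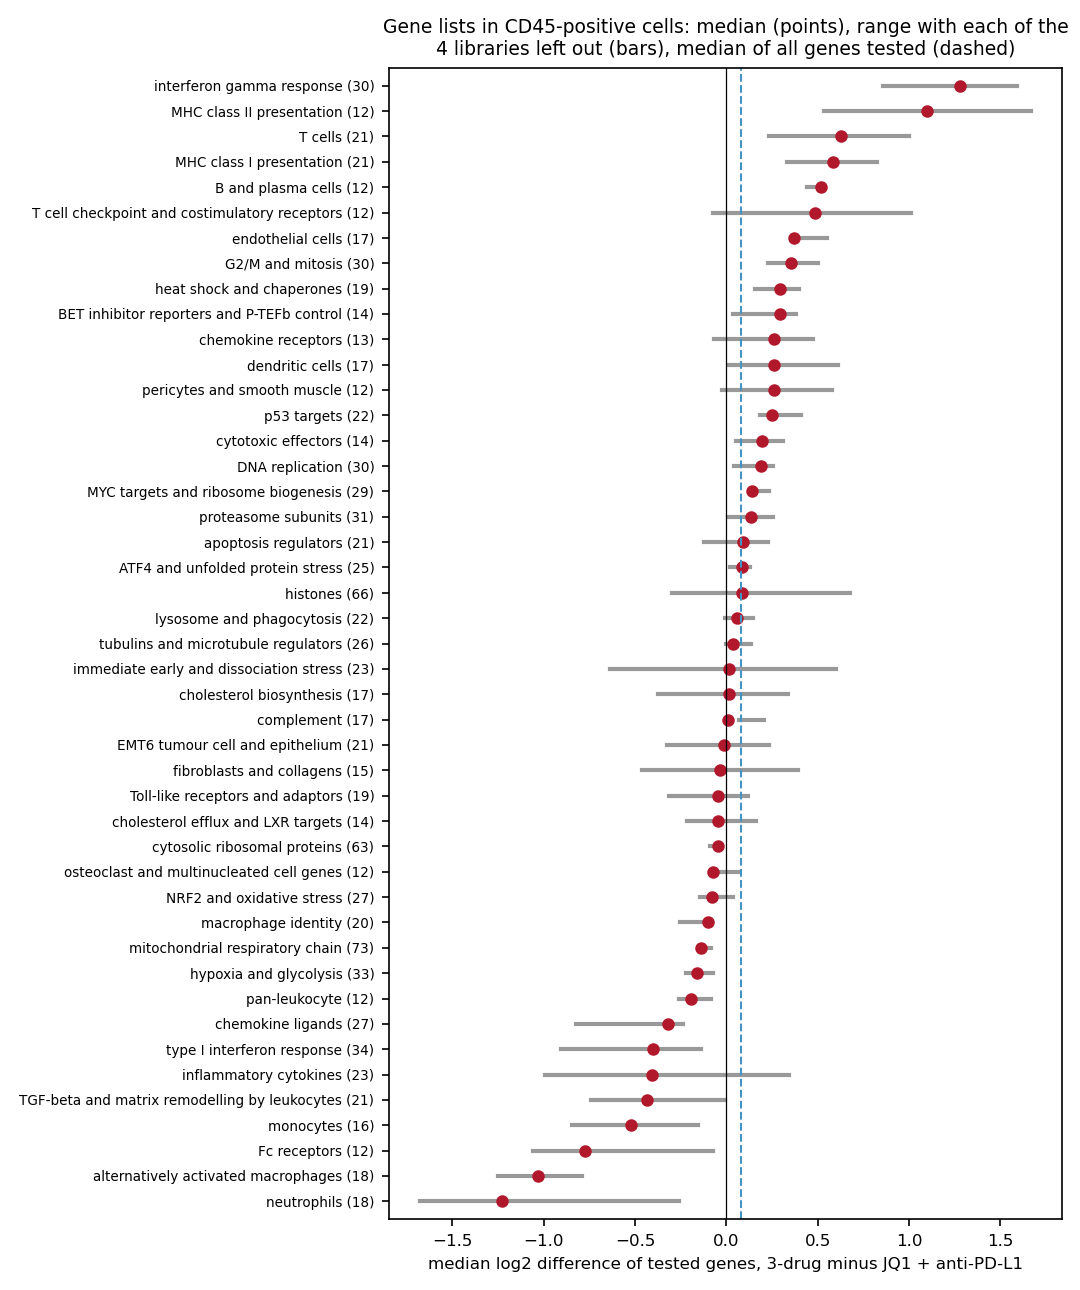
Median log2 difference (3-drug minus JQ1 plus anti-PD-L1) of each gene list with at least 10 tested genes in CD45-positive cells. Points are medians, bars the range when each of the 4 libraries is left out, the dashed line the median of all genes tested (0.079), and the number of tested genes stands in brackets. The interferon gamma response and class II presentation stand at the top, neutrophils and alternatively activated macrophages at the bottom.

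Type I interferon genes did not follow. Over 34 tested genes their median was -0.40, with 2 higher and 15 lower among those not overlapping between the groups, and an unadjusted p under 0.05 for 1 higher and 4 lower genes. That median moved with single libraries, to -0.91 without 3-drug library 1, -0.14 without 3-drug library 2, -0.21 without JQ1 plus anti-PD-L1 library 1 and -0.69 without its library 2. Oas2, which senses double-stranded RNA, had 1.03 and 0.595 FPKM in the 3-drug libraries, against 2.54 and 2.80 FPKM with JQ1 plus anti-PD-L1. Isg20, an antiviral exonuclease, had 7.29 and 1.70 FPKM in the 3-drug libraries, against 11.2 and 14.3 FPKM with JQ1 plus anti-PD-L1. Isg15, the ubiquitin-like protein conjugated in antiviral states, had 37.2 and 10.1 FPKM in the 3-drug libraries, against 65.2 and 46.1 FPKM with JQ1 plus anti-PD-L1. The groups were apart in each of these 3 genes, in the direction opposite to Irf1, and none of them passed the threshold.

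Neutrophil genes had the lowest median of the lists with at least 10 tested genes, -1.23 over 18 tested of 23 listed. In 7 the groups did not overlap, all lower, and 3 had an unadjusted p under 0.05. S100a8, a subunit of the calprotectin of neutrophils and monocytes, had 109 and 282 FPKM in the 3-drug libraries, against 490.0 and 728 FPKM with JQ1 plus anti-PD-L1. Both 3-drug libraries were under both others, with a log2 difference of -1.76 ± 0.65 (SE, limma adjusted p = 0.523). Wfdc21, a small secreted protein of the whey acidic family, had 6.69 and 6.41 FPKM in the 3-drug libraries, against 23.8 and 24.97 FPKM with JQ1 plus anti-PD-L1. Slpi, an inhibitor of neutrophil elastase made by myeloid and epithelial cells, had 192 and 82.5 FPKM in the 3-drug libraries, against 636 and 446 FPKM with JQ1 plus anti-PD-L1. The defining markers were less uniform. S100a9, the partner of S100a8, had 70.2 and 422 FPKM in the 3-drug libraries, against 397 and 546 FPKM with JQ1 plus anti-PD-L1. Csf3r, the receptor for granulocyte colony-stimulating factor, had 15.1 and 31.1 FPKM in the 3-drug libraries, against 23.3 and 23.8 FPKM with JQ1 plus anti-PD-L1. Both overlapped, since 3-drug library 2 was high. Summed over the list there were 573 and 1237 FPKM in the 3-drug libraries, against 2002 and 2325 FPKM with JQ1 plus anti-PD-L1. Here 3-drug library 1 lay lowest. The median was -0.26 without it and -0.50 without JQ1 plus anti-PD-L1 library 2.

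Monocyte genes had a median of -0.52 over 16 tested, with 2 higher and 5 lower without overlap. It was -0.16 without JQ1 plus anti-PD-L1 library 1, -0.85 without its library 2 and -0.29 without 3-drug library 2. Ccr2, the receptor that brings monocytes out of the marrow, had 10.9 and 2.27 FPKM in the 3-drug libraries, against 25.8 and 15.6 FPKM with JQ1 plus anti-PD-L1, a difference of -1.76 ± 0.56 (SE, limma adjusted p = 0.496). F13a1, the clotting factor chain made by monocytes and resident-type macrophages, had 70.6 and 80.0 FPKM in the 3-drug libraries, against 225 and 263 FPKM with JQ1 plus anti-PD-L1. Vcan, a matrix proteoglycan of monocytes, had 1.95 and 2.23 FPKM in the 3-drug libraries, against 10.2 and 6.48 FPKM with JQ1 plus anti-PD-L1. The groups were apart in all 3 of these genes. Genes that mark macrophages as such went both ways. The macrophage identity list had differences of -1.31 to 0.63 with a median of -0.10 over 20 tested genes, 2 higher and 5 lower without overlap. That median was -0.25 without JQ1 plus anti-PD-L1 library 1 and -0.28 with depth as a covariate. Lyz2, lysozyme of macrophages and neutrophils and the member of highest level, had 8785 and 12326 FPKM in the 3-drug libraries, against 13922 and 13335 FPKM with JQ1 plus anti-PD-L1, lower without overlap. Adgre1, the F4/80 antigen, had 82.2 and 65.1 FPKM in the 3-drug libraries, against 70.7 and 64.3 FPKM with JQ1 plus anti-PD-L1. Csf1r, the receptor for macrophage colony-stimulating factor, had 288 and 326 FPKM in the 3-drug libraries, against 306 and 355 FPKM with JQ1 plus anti-PD-L1. The groups overlapped in Adgre1 and Csf1r.

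In the list of alternatively activated macrophages, which take part in repair and tissue growth, 12 of 18 tested genes were lower without overlap and 1 was higher, where the background of lower genes was 17.5%. An unadjusted p under 0.05 was reached by 6 genes, all lower, and the median of -1.03 stayed within -1.25 to -0.79 with each library left out and was -1.67 with depth as a covariate. Arg1, which takes arginine from T cells, had 461 and 192 FPKM in the 3-drug libraries, against 657 and 687 FPKM with JQ1 plus anti-PD-L1, a log2 difference of -1.17 ± 0.48 (SE, limma adjusted p = 0.547). Vegfa, the growth factor of vessels, had 36.5 and 32.1 FPKM in the 3-drug libraries, against 67.3 and 74.1 FPKM with JQ1 plus anti-PD-L1. For Vegfa the difference was -1.02 ± 0.29 (SE, limma adjusted p = 0.496). Folr2 and Lyve1 mark resident, perivascular macrophages. Folr2 had 43.8 and 34.4 FPKM in the 3-drug libraries, against 80.0 and 119.5 FPKM with JQ1 plus anti-PD-L1. Lyve1 had 7.72 and 6.54 FPKM in the 3-drug libraries, against 19.3 and 45.3 FPKM with JQ1 plus anti-PD-L1. In both the 3-drug libraries were close to each other and lower. Ccl24, an eosinophil attractant made by such macrophages, had 3.03 and 5.92 FPKM in the 3-drug libraries, against 25.6 and 21.5 FPKM with JQ1 plus anti-PD-L1, a difference of -2.21 ± 0.75 (SE, limma adjusted p = 0.516).

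Chemokine ligands showed 1 higher and 14 lower genes of 27 without overlap, and 1 higher and 9 lower at an unadjusted p under 0.05, with a median of -0.32. The median was -0.83 without 3-drug library 1, and lay between -0.60 and -0.24 with another of the 4 left out. Cxcl9 was the higher one. Ccl2, which binds CCR2, had 673 and 821 FPKM in the 3-drug libraries, against 1418 and 1229.9 FPKM with JQ1 plus anti-PD-L1. Ccl7, its close relative, had 757 and 731 FPKM in the 3-drug libraries, against 1559 and 1261 FPKM with JQ1 plus anti-PD-L1. For Ccl7, where the 3-drug libraries nearly coincided, the difference was -0.91 ± 0.26 (SE, limma adjusted p = 0.496). Ccl6, made by myeloid cells, had 726 and 678 FPKM in the 3-drug libraries, against 1280.3 and 1381 FPKM with JQ1 plus anti-PD-L1. The neutrophil attractant Cxcl3 had 319.6 and 95.5 FPKM in the 3-drug libraries, against 702 and 781 FPKM with JQ1 plus anti-PD-L1, a difference of -2.08 ± 0.66 (SE, limma adjusted p = 0.496). Pf4, which platelets store and some macrophages also make, had 126 and 313 FPKM in the 3-drug libraries, against 1074 and 1019 FPKM with JQ1 plus anti-PD-L1. Both JQ1 plus anti-PD-L1 libraries were the highest of all 10, and of the 6 remaining CD45-positive libraries 1 of JQ1 and 1 of vehicle were above the 3-drug pair too. Ppbp, another platelet chemokine, had 1.23 and 4.15 FPKM in the 3-drug libraries, against 97.6 and 15.5 FPKM with JQ1 plus anti-PD-L1. Of 13 platelet and megakaryocyte genes only 3 were expressed enough to be tested, so the platelet list rests on Pf4 and Ppbp. The third tested gene, Nrgn, went the other way and was higher without overlap, with a log2 difference of 0.33. Summed over all 13 platelet genes there were 128 and 319 FPKM in the 3-drug libraries, against 1173 and 1036 FPKM with JQ1 plus anti-PD-L1. Hba-a1, an alpha globin and a sign of red cells, had 0.0298 and 0.588 FPKM in the 3-drug libraries, against 0.929 and 5.93 FPKM with JQ1 plus anti-PD-L1. In all, 3 of 4 tested erythroid genes were lower without overlap. The part of platelets and red cells in these values was not tested.

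Secreted factors of repair and matrix had a median of -0.44 over 21 tested genes, with 1 higher and 10 lower without overlap. The median depended on single libraries and was -0.0095 without 3-drug library 2, against -0.74 without library 1. It was -0.26 without JQ1 plus anti-PD-L1 library 2 and -0.71 with depth as a covariate. Tgfb1, the main TGF-beta of immune cells, had 12.6 and 16.3 FPKM in the 3-drug libraries, against 56.3 and 48.2 FPKM with JQ1 plus anti-PD-L1, a log2 difference of -1.79 ± 0.46 (SE, limma adjusted p = 0.496). Fn1, fibronectin, had 82.0 and 60.0 FPKM in the 3-drug libraries, against 258 and 218 FPKM with JQ1 plus anti-PD-L1. Timp1, an inhibitor of matrix proteases, had 23.4 and 19.5 FPKM in the 3-drug libraries, against 48.1 and 62.1 FPKM with JQ1 plus anti-PD-L1. The higher gene was Timp3, another inhibitor, with 4.47 and 6.30 FPKM in the 3-drug libraries, against 1.49 and 1.54 FPKM with JQ1 plus anti-PD-L1. Its difference was 1.33 ± 0.25 (SE, limma adjusted p = 0.424), so the 2 inhibitors lay on opposite sides. Areg, amphiregulin, a ligand of the EGF receptor made by leukocytes in wounds, had 43.1 and 8.27 FPKM in the 3-drug libraries, against 146 and 133 FPKM with JQ1 plus anti-PD-L1. Its relative Ereg had 3.98 and 1.23 FPKM in the 3-drug libraries, against 17.2 and 9.91 FPKM with JQ1 plus anti-PD-L1. The difference of Areg was -2.79 ± 0.66 (SE, limma adjusted p = 0.496), and the 2 JQ1 plus anti-PD-L1 libraries were the highest of all 10. Areg is not a member of the list above. In the CD45-negative fraction Areg was higher in the 3-drug libraries, with 169, 161 and 169 FPKM, against 43.9 and 119 FPKM with JQ1 plus anti-PD-L1. Timp1 had 267, 222 and 239 FPKM there, against 225 and 243 FPKM. The part of tumour cells in the values of Areg and Timp1 was not tested.

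Among cytokines of inflammation the median was -0.41 over 23 tested genes, and 5 were lower and 0 higher without overlap. That share of lower genes was near the 17.5% over all genes. Osm, oncostatin M, had 95.5 and 125 FPKM in the 3-drug libraries, against 218 and 270.1 FPKM with JQ1 plus anti-PD-L1. Il18, a cytokine that primes interferon gamma release, had 6.70 and 3.69 FPKM in the 3-drug libraries, against 13.7 and 11.9 FPKM with JQ1 plus anti-PD-L1. Il1b and Tnf, both of activated macrophages, overlapped, with 3-drug library 1 far above library 2 in each. Il1b had 1533 and 298 FPKM in the 3-drug libraries, against 1152 and 1976 FPKM with JQ1 plus anti-PD-L1. Tnf had 482 and 149 FPKM in the 3-drug libraries, against 301 and 290.0 FPKM with JQ1 plus anti-PD-L1. The median of the cytokine list was 0.34 without 3-drug library 2, -0.99 without 3-drug library 1 and -0.17 without JQ1 plus anti-PD-L1 library 2. The Fc receptor list, which holds activating and inhibitory receptors of myeloid cells, had a median of -0.78 over 12 tested genes with 0 higher and 4 lower. Its median was -0.073 without 3-drug library 2 and -1.06 without library 1. Pirb, an inhibitory receptor for class I molecules, had 42.7 and 38.2 FPKM in the 3-drug libraries, against 77.0 and 76.8 FPKM with JQ1 plus anti-PD-L1, a difference of -0.91 ± 0.27 (SE, limma adjusted p = 0.496).

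Lymphocyte genes stood higher in both 3-drug libraries in part. Of 21 tested T cell genes 13 were higher and 1 lower without overlap, 1 had an unadjusted p under 0.05, and the median was 0.63. Cd3e, a chain of the T cell receptor complex, had 5.40 and 3.48 FPKM in the 3-drug libraries, against 2.68 and 2.28 FPKM with JQ1 plus anti-PD-L1. Cd8a, of cytotoxic T cells, had 1.35 and 0.852 FPKM in the 3-drug libraries, against 0.373 and 0.287 FPKM with JQ1 plus anti-PD-L1, close to the limit of what was kept. Ccr7, which guides naive T cells and mature dendritic cells to lymph nodes, had 49.0 and 21.5 FPKM in the 3-drug libraries, against 18.8 and 19.2 FPKM with JQ1 plus anti-PD-L1. Summed over the T cell list there were 159 and 65.8 FPKM in the 3-drug libraries, against 63.1 and 58.9 FPKM with JQ1 plus anti-PD-L1, so 3-drug library 2 was scarcely above them. Without library 1 the median of the list was 0.24, and without library 2 it was 0.998.

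B and plasma cell genes had a median of 0.52 over 12 tested genes, with 7 higher and 0 lower, but with relative depth as a covariate that median was 0.025. Cd79b, a signalling chain of the B cell receptor, had 4.17 and 6.24 FPKM in the 3-drug libraries, against 1.96 and 1.24 FPKM with JQ1 plus anti-PD-L1. Both 3-drug libraries were the higher ones in Cd79b. Cytotoxic effectors did not stand out, with a median of 0.19 over 14 genes (0.053 without 3-drug library 1, 0.35 with depth as a covariate), 5 higher and 3 lower. For checkpoint and costimulatory receptors the median was 0.49 over 12 genes but -0.075 without 3-drug library 1 and 1.01 without library 2. Pdcd1, which encodes PD-1, the receptor of PD-L1, had 4.57 and 1.06 FPKM in the 3-drug libraries, against 0.749 and 1.44 FPKM with JQ1 plus anti-PD-L1, with overlap. Dendritic cell genes had a median of 0.26 over 17 genes, with 5 higher and 1 lower, a share of higher genes near the 25.7% over all genes. The median was 0.016 without 3-drug library 1, 0.61 without library 2, 0.15 without JQ1 plus anti-PD-L1 library 1 and -0.049 with depth as a covariate, where the 3-drug libraries were the deeper ones. Zbtb46, a factor of conventional dendritic cells, had 1.23 and 0.890 FPKM in the 3-drug libraries, against 0.275 and 0.457 FPKM with JQ1 plus anti-PD-L1. Siglech, of plasmacytoid dendritic cells, had 1.26 and 1.23 FPKM in the 3-drug libraries, against 0.381 and 0 FPKM with JQ1 plus anti-PD-L1. Flt3 and Xcr1, also dendritic cell markers, overlapped between the groups. Flt3 had 1.13 and 1.26 FPKM in the 3-drug libraries, against 1.52 and 0.976 FPKM with JQ1 plus anti-PD-L1. Xcr1 had 1.23 and 0.038 FPKM, against 0.155 and 0.398 FPKM in the same order. The lower gene was Bst2, with 75.8 and 42.8 FPKM, against 89.8 and 82.3 FPKM.

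Endothelial genes were present at low levels, and 10 of 17 tested were higher without overlap, none lower, with 4 at an unadjusted p under 0.05 and a median of 0.37. Emcn, endomucin, a surface sialomucin of venous and capillary endothelium, had 4.85 and 3.99 FPKM in the 3-drug libraries, against 0.848 and 0.480 FPKM with JQ1 plus anti-PD-L1. Its difference of 1.71 ± 0.23 (SE, limma adjusted p = 0.157) had the smallest p of any gene after Mir6236 and Rpl26. The defining markers differed less. Pecam1, an adhesion molecule of vessel walls and some leukocytes, had 5.44 and 4.08 FPKM in the 3-drug libraries, against 3.64 and 3.43 FPKM with JQ1 plus anti-PD-L1. Cdh5, VE-cadherin, had 0.449 and 0.299 FPKM in the 3-drug libraries, against 0.289 and 0.414 FPKM with JQ1 plus anti-PD-L1. Cdh5 was thus near the bottom of the range in all 4 libraries. Summed over the list there were 136 and 75.8 FPKM in the 3-drug libraries, against 85.9 and 57.2 FPKM with JQ1 plus anti-PD-L1, which overlap. The share of endothelial cells left after bead separation was not measured, and its part in Plvap and Emcn was not tested.

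Genes of mitosis were slightly higher in the 3-drug libraries. The median was 0.36 over 30 genes, 17 were higher and 0 lower without overlap, and 4 had an unadjusted p under 0.05. With relative depth as a covariate the median of the mitosis list was 0.101, and it was 0.23 without 3-drug library 1 and 0.24 without JQ1 plus anti-PD-L1 library 1. In 2 other comparisons with paclitaxel the list lay on the lower side. For JQ1 plus paclitaxel against JQ1 its median was -0.33, with 2 higher and 14 lower without overlap, where 26.8% of all genes were lower. For the 3-drug comparison in CD45-negative cells its median was -0.34, and 1 of 30 genes passed limma's adjusted threshold, lower. Aurka, a kinase of the spindle poles, had 7.62 and 5.78 FPKM in the 3-drug libraries, against 1.78 and 3.85 FPKM with JQ1 plus anti-PD-L1, a difference of 1.06 ± 0.31 (SE, limma adjusted p = 0.496). Kif11, a motor that pushes the poles apart, had 2.40 and 2.02 FPKM in the 3-drug libraries, against 0.642 and 1.44 FPKM with JQ1 plus anti-PD-L1. Cdc20, which opens the way out of mitosis, had 12.7 and 11.6 FPKM in the 3-drug libraries, against 8.16 and 6.96 FPKM with JQ1 plus anti-PD-L1. Of 30 genes of DNA replication 9 were higher and 1 lower without overlap, a share of higher genes near the 25.7% over all genes. Their median was 0.19, and -0.028 with depth as a covariate. It was 0.041 without 3-drug library 1 and 0.104 without JQ1 plus anti-PD-L1 library 1. Heat shock genes had a median of 0.30 over 19 genes, 9 higher and 0 lower without overlap, and 0.15 to 0.40 with a library left out. MYC targets had a median of 0.14 over 29 genes, 13 higher and 1 lower. Proteasome subunits also had 0.14, over 31 genes, 13 higher and 1 lower, but 0.011 without 3-drug library 1. For p53 targets the median was 0.25 over 22 genes, 6 higher and 1 lower, again near the 25.7% of higher genes over all genes. Reporters of BET inhibition, a check on the drug that both groups received, had a median of 0.29 over 14 genes, and 0.039 without 3-drug library 2. Hexim1, the best known of them, had 1.81 and 3.93 FPKM in the 3-drug libraries, against 4.13 and 1.99 FPKM with JQ1 plus anti-PD-L1, with overlap. Immediate early genes, which respond to tissue dissociation, had a median of 0.02 over 23 genes. Their sums were 2264 and 5723 FPKM in the 3-drug libraries, against 3676 and 3004 FPKM with JQ1 plus anti-PD-L1, so the 3-drug libraries lay on either side. The part of dissociation in single genes was not tested.

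The same drug added to JQ1 without the antibody is the other measure of paclitaxel in these cells, and its libraries share the limma model, and so the estimate of spread, with those of the 3-drug comparison. In JQ1 plus paclitaxel against JQ1, 0 genes passed limma's adjusted threshold (0.0%) and 1038 had an unadjusted p under 0.05. The groups did not overlap for 1084 higher (10.5%) and 2771 lower genes (26.8%). Across the 10340 genes the 2 sets of differences were nearly unrelated, with a Pearson correlation of 0.0189, given as a description since genes are not independent. Of the 920 genes with an unadjusted p under 0.05 when the antibody was present, 465 had the same sign without it and 455 the opposite sign.

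Tubulins, the proteins that paclitaxel binds, are given for both settings. Cells lower the stability of tubulin messages when free tubulin is abundant, and drugs that draw tubulin into microtubules are known to raise them. The 10 tested genes of alpha and beta tubulin were put together with their values already seen. Tuba1a, an alpha tubulin, had 258 and 198 FPKM with JQ1 plus paclitaxel, against 112 and 129.7 FPKM with JQ1. With the antibody present Tuba1a had 131 and 116 FPKM in the 3-drug libraries, against 144 and 133 FPKM with JQ1 plus anti-PD-L1. Tubb4b, a beta tubulin, had 217 and 193 FPKM with JQ1 plus paclitaxel, against 81.7 and 111 FPKM with JQ1. With the antibody present Tubb4b had 97.7 and 87.5 FPKM in the 3-drug libraries, against 117 and 69.7 FPKM with JQ1 plus anti-PD-L1. Without the antibody the JQ1 plus paclitaxel libraries were the higher pair in both genes, whereas with it the 3-drug pair was slightly lower in Tuba1a and overlapped in Tubb4b. All 10 were higher in both JQ1 plus paclitaxel libraries than in both JQ1 libraries, by 0.56 to 1.10 with a median of 0.89, where 10.5% of all genes were so, and 9 had an unadjusted p under 0.05. In the 3-drug comparison the same genes differed by -0.42 to 0.04, 0 were higher without overlap, 3 were lower and 7 overlapped. The difference between the 2 effects had a median of -1.06 over the 10 genes, and 9 of them reached an unadjusted p under 0.05, but limma's adjusted p ran from 0.284 to 0.533. Near-identical tubulin genes such as Tuba1a, Tuba1b and Tuba1c may share reads, so the 10 are not independent.

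**Figure D3:**
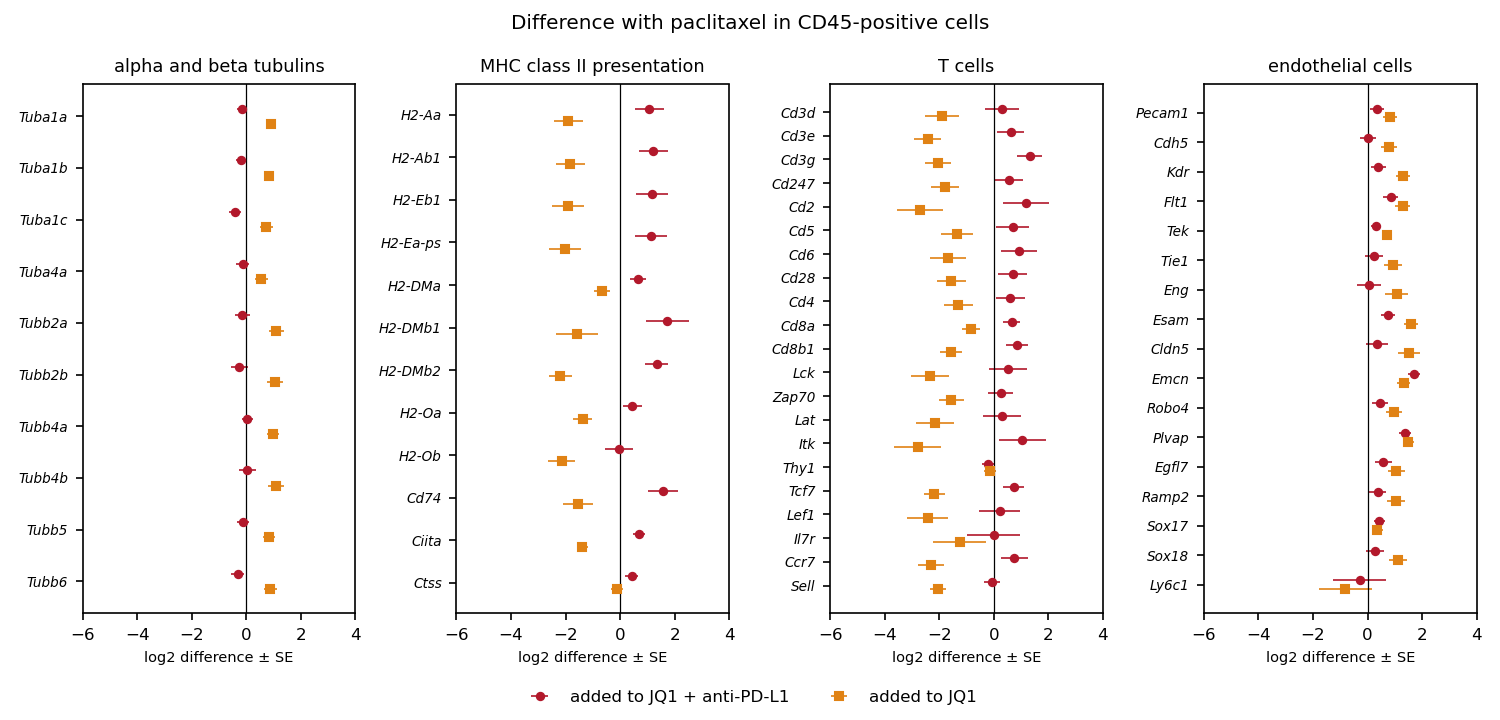
Log2 difference with paclitaxel in CD45-positive cells for the tested genes of 4 groups, with bars of 1 SE. Circles are paclitaxel added to JQ1 plus anti-PD-L1 and squares paclitaxel added to JQ1. Tubulin circles lie near 0 and squares near 0.89, class II and T cell genes lie mostly right of 0 for circles and left of 0 for squares, and endothelial genes lie mostly right of 0 for both.

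Tested directly, the difference between both paclitaxel effects passed limma's adjusted threshold for 0 genes (0.0%). At an unadjusted p under 0.05 stood 1070 genes, 819 with the higher value when the antibody was present (7.92%) and 251 with the lower (2.43%). Lymphocyte and class II genes were prominent on the higher side. Gimap6, a GTPase of lymphocyte survival, had 15.04 and 13.03 FPKM in the 3-drug libraries, against 3.65 and 2.01 FPKM with JQ1 plus anti-PD-L1. Without the antibody Gimap6 had 11.0 and 7.58 FPKM with JQ1 plus paclitaxel, against 61.4 and 26.8 FPKM with JQ1. The difference of effects was 4.04 ± 0.59 (SE, limma adjusted p = 0.205). Ltb, lymphotoxin beta of lymphocytes, had 14.2 and 11.1 FPKM in the 3-drug libraries, against 7.42 and 10.2 FPKM with JQ1 plus anti-PD-L1. Without it there were 5.08 and 3.03 FPKM with JQ1 plus paclitaxel, against 34.7 and 19.0 FPKM with JQ1. For Gimap6 the 2 gaps were of like size and opposite direction, for Ltb the gap without the antibody was the wider one, and the 2 JQ1 libraries were the highest of all 10 for both genes. Of the class II genes H2-DMb2, which helps load peptides, had 131 and 61.6 FPKM in the 3-drug libraries, against 39.3 and 31.1 FPKM with JQ1 plus anti-PD-L1. In the absence of the antibody H2-DMb2 had 32.3 and 28.5 FPKM with JQ1 plus paclitaxel, against 195 and 102 FPKM with JQ1. Il2rb, a chain of the interleukin 2 receptor, had 8.84 and 4.76 FPKM in the 3-drug libraries, against 5.10 and 5.04 FPKM with JQ1 plus anti-PD-L1. Its values without the antibody were 3.46 and 3.18 FPKM with JQ1 plus paclitaxel, against 28.1 and 16.8 FPKM with JQ1. Tspan13, a tetraspanin, had 16.4 and 15.9 FPKM in the 3-drug libraries, against 11.0 and 8.82 FPKM with JQ1 plus anti-PD-L1. In the other setting it had 10.7 and 9.27 FPKM with JQ1 plus paclitaxel, against 29.9 and 21.4 FPKM with JQ1. In Il2rb and Tspan13 too the JQ1 libraries were the highest of all 10.

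By list, class II genes had a median difference of effects of 3.01, with 11 of 12 at an unadjusted p under 0.05, and T cell genes 2.42, with 19 of 21. B and plasma cell genes had 2.47, with 9 of 12. In each of these lists the median was below 0 for paclitaxel added to JQ1, at -1.71, -1.91 and -2.06 in the same order. T cell sums were 68.5 and 32.4 FPKM with JQ1 plus paclitaxel, against 488 and 152 FPKM with JQ1, and 66.0 and 48.1 FPKM with vehicle. Among these groups the JQ1 pair, which shares a title code, was the highest. The 3-drug sums, given above, were 159 and 65.8 FPKM, so JQ1 library 2 lay below 3-drug library 1. What the JQ1 pair contributes to the difference of effects beyond its drug was not tested.

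On the lower side of that test stood Mir6236 and S100a4, given above, together with Timp1, Olr1 and Errfi1. Timp1 had 34.0 and 38.6 FPKM with JQ1 plus paclitaxel, against 12.1 and 24.5 FPKM with JQ1, the opposite order to its 3-drug comparison. The difference of effects for Timp1 was -2.34 ± 0.44 (SE, limma adjusted p = 0.207). Olr1, a scavenger receptor of activated myeloid cells, had 5.38 and 2.22 FPKM in the 3-drug libraries, against 15.4 and 9.44 FPKM with JQ1 plus anti-PD-L1. Given without the antibody, the values were 8.19 and 13.5 FPKM with JQ1 plus paclitaxel, against 5.10 and 5.30 FPKM with JQ1. Errfi1, a feedback inhibitor of the EGF receptor, had 34.6 and 23.4 FPKM in the 3-drug libraries, against 54.6 and 63.5 FPKM with JQ1 plus anti-PD-L1. In the other setting they were 35.7 and 44.4 FPKM with JQ1 plus paclitaxel, against 26.5 and 32.3 FPKM with JQ1, so all 3 genes were lower with paclitaxel when the antibody was present and not when it was absent. Endothelial genes, by contrast, were mostly higher with paclitaxel in both settings. Plvap had 84.5 and 98.4 FPKM with JQ1 plus paclitaxel, against 31.5 and 31.7 FPKM with JQ1. Emcn had 8.46 and 9.54 FPKM with JQ1 plus paclitaxel, against 2.73 and 3.25 FPKM with JQ1. Of 17 endothelial genes 16 were higher without overlap with JQ1 plus paclitaxel, and the list's medians were 0.37 with the antibody and 1.06 without it. Fibroblast genes had medians of -0.04 with the antibody and 1.06 without it, where 13 of 15 were higher without overlap.

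The CD45-negative cells of these tumours, with 3 libraries of the 3-drug group and 2 of JQ1 plus anti-PD-L1, offered the same comparison in other libraries, 4 of which carry the same title codes and sides as the CD45-positive ones, so they are not independent tumours. Here 108 of 10780 genes passed limma's threshold, 64 rose (0.594%) and 44 fell (0.408%). These calls rest on few tumours: both JQ1 plus anti-PD-L1 libraries share a title code here too, a single value per code left 1 call, and leaving out library 1 of that group also left 1, while 4 were left without 3-drug library 2. Each gene said below to rise or fall in this fraction was called with all libraries in the fit. No test was made of one fraction against the other. In the interferon gamma list 4 of 27 tested genes rose, Gbp2, Gbp3, Gbp4 and Gbp8, and the median was 1.16. Gbp2 had 166, 225 and 153 FPKM in the 3-drug libraries, against 86.6 and 70.2 FPKM with JQ1 plus anti-PD-L1, a log2 difference of 1.19 ± 0.23 (SE, limma adjusted p = 0.0399). Gbp4 had 23.4, 55.5 and 12.4 FPKM in the 3-drug libraries, against 6.62 and 3.26 FPKM with JQ1 plus anti-PD-L1. Among class I genes H2-L, H2-Q4, H2-Q6, H2-T23 and Tapbp rose, 5 of 21. Cd74 rose by 3.13 ± 0.61 (SE, limma adjusted p = 0.0399), with 648, 1158 and 186 FPKM in the 3-drug libraries, against 76.4 and 44.3 FPKM with JQ1 plus anti-PD-L1.

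Genes that fell in the CD45-negative fraction were in part leukocyte genes that were also lower in the CD45-positive one. Pf4 had 8.83, 4.64 and 11.4 FPKM in the 3-drug libraries, against 165 and 83.0 FPKM with JQ1 plus anti-PD-L1, a log2 difference of -3.74 ± 0.41 (SE, limma adjusted p = 0.00284). S100a8 had 5.68, 8.13 and 4.37 FPKM in the 3-drug libraries, against 36.4 and 32.4 FPKM with JQ1 plus anti-PD-L1. The gap of S100a8 was -2.36 ± 0.27 (SE, limma adjusted p = 0.00284). Of 16 tested genes of alternatively activated macrophages 6 fell (Mrc1, Chil3, Folr2, Lyve1, Pf4 and Ccl24), and of 24 chemokine ligands 7 fell (Ccl6, Ccl7, Ccl9, Ccl24, Cxcl14, Pf4 and Ppbp). Ccl7 had 109, 74.9 and 85.1 FPKM in the 3-drug libraries, against 308 and 194 FPKM with JQ1 plus anti-PD-L1. CD45-negative libraries still held leukocyte RNA, with Ptprc at 6.53, 8.65 and 3.29 FPKM in the 3-drug libraries, against 8.05 and 4.75 FPKM with JQ1 plus anti-PD-L1. Ptprc itself differed by -0.09 ± 0.41 (SE, limma adjusted p = 0.94). The part of residual leukocytes in these values was not tested. Genes of a list that joins amino acid stress and unfolded protein stress also rose there, 4 of 25 tested (Chac1, Trib3, Sesn2 and Herpud1). Chac1, which degrades glutathione, had 46.7, 63.7 and 39.9 FPKM in the 3-drug libraries, against 1.80 and 3.59 FPKM with JQ1 plus anti-PD-L1. Trib3, a pseudokinase of the same list, had 16.5, 17.7 and 18.3 FPKM in the 3-drug libraries, against 3.91 and 6.00 FPKM with JQ1 plus anti-PD-L1. In the CD45-positive cells Chac1 had 5.54 and 0.116 FPKM in the 3-drug libraries, against 0.157 and 0 FPKM with JQ1 plus anti-PD-L1, with overlap. The list had a median of 0.08 over 25 genes. Cpq, named above, rose as well, with 155, 147 and 126 FPKM in the 3-drug libraries, against 67.0 and 93.3 FPKM with JQ1 plus anti-PD-L1. Its difference was 0.84 ± 0.18 (SE, limma adjusted p = 0.0497). Mir6236 had 456, 353 and 697 FPKM in the 3-drug libraries, against 859 and 557 FPKM with JQ1 plus anti-PD-L1, which overlap.

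**Figure D4:**
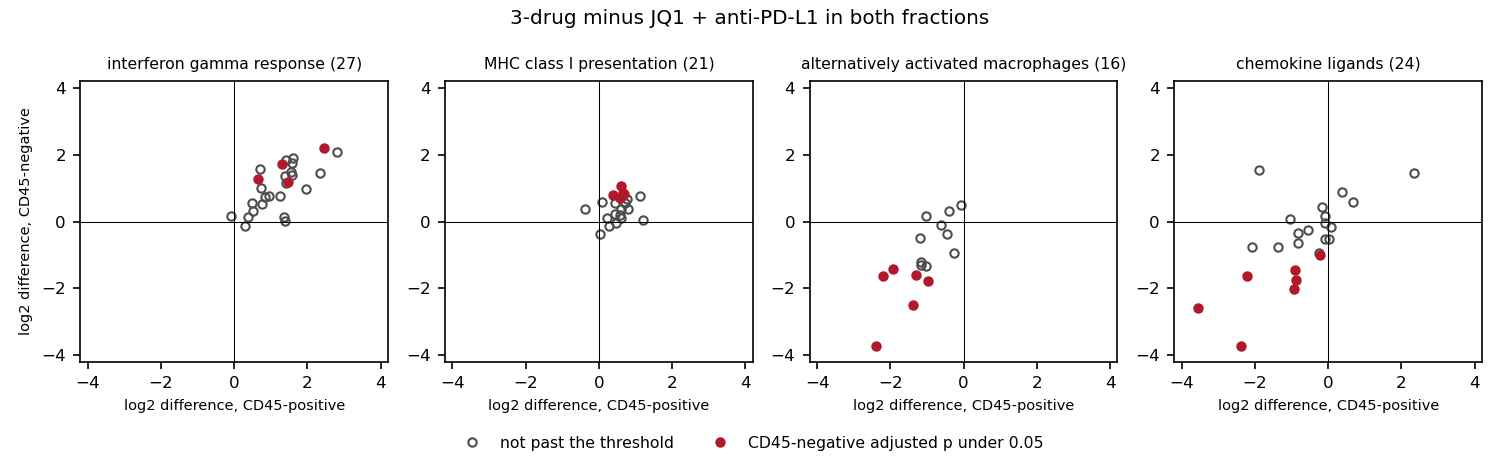
Log2 difference (3-drug minus JQ1 plus anti-PD-L1) of the genes tested in both fractions, CD45-positive on the horizontal and CD45-negative on the vertical axis, for 4 lists with the number of genes in brackets. Filled points passed limma's threshold in the CD45-negative fraction, 4 and 5 of them higher in the interferon gamma and class I panels and 6 and 7 lower in the other panels, and no gene of these lists passed it in the CD45-positive fraction.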

How the data were processed

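RNA of CD45-positive and CD45-negative cells of EMT6 tumours was sequenced, and 2 tables, 1 per fraction, were used. The deposited values were read as FPKM made by the authors: the label of the tables speaks of counts, but the values have decimals and the CD45-positive columns sum to 315256 to 364118. Reads were aligned with STAR 2.5.1b to mm9, per the submitters' processing notes, and the tool that made the gene values is not given in the sources used here. Read totals were not given, so depth was known only in relative terms, and the error of each value is the spread among libraries. The chromatin accessibility libraries were not analysed here, and some genes of the lists are not reported here.

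Groups are fraction and treatment as labelled. In each fraction a gene was kept if 2 or more libraries reached 1 FPKM. The log2(FPKM + 1) values of all 5 groups of a fraction went into 1 limma 3.58.1 model (R 4.3.3) with trend, with 5 residual degrees of freedom in CD45-positive cells (8.94 after moderation) and 7 in CD45-negative cells (12.8). The contrasts were 3-drug minus JQ1 plus anti-PD-L1 in each fraction, JQ1 plus paclitaxel minus JQ1, and the difference between the 2 paclitaxel effects. All tests were two-sided, and a call needed a p under 0.05 after Benjamini-Hochberg adjustment over all genes kept. The fit was tested on simulated data. Count models such as negative binomial tests were not used, since no counts were at hand.

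The comparison, the 52 gene lists and the rule for naming genes were chosen with earlier results of these data known. Named were called genes and, where a direction had fewer than 8, those of smallest p to 8. They needed a mean log2(FPKM + 1) of at least 2, no overlap between the groups and no clone identifier. For the difference of effects 5 each way were named by the same conditions, except that overlap was allowed. Also named were the 2 members of highest level of lists without a call, and Ptprc, Cd274, Pdcd1, Hexim1 and Myc. Of the list members named by level only some are printed, and the other genes were chosen after their values were seen. A count of genes without overlap is a description. The shares over all genes, 25.7% higher and 17.5% lower in the 3-drug comparison, are its background and are repeated beside some of the counts only. Symbols were matched to RefSeq (23723 directly and 542 through a synonym). Sequences are from RefSeq on GRCm38.p6, another build than that of the values. Reads of near-identical genes (H2, Gbp, tubulin, histone, globin) may be shared. Alternatives were other pseudocounts, filters, scalings, weights and fits, depth as a covariate, a single value per title code and each library left out. Python 3.11.15, pandas 2.3.3, numpy 2.4.6 and matplotlib 3.10.9 were used for tables and figures.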

Additional observations from a re-analysis of the deposited data

How the results depend on the processing

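Limits come from 2 libraries a group, from treatment and title code that cannot be told apart, and from depth known only in relative terms. The count of 1 called gene in CD45-positive cells was 2 with a pseudocount of 0.1, and 0 with no filter on low values, with relative depth as a covariate and with a single value per title code, and it ranged over 0 to 2 with a library left out. Mir6236 had adjusted p of 0.0607, 0.16 and 0.323 in the 3 settings that lost it. The difference of the 2 paclitaxel effects had 0 calls in every setting with all libraries, and 0 to 10 with a library left out (10 without JQ1 plus paclitaxel library 1). JQ1 plus paclitaxel against JQ1 had 4 calls with no filter, 2 with a mean of at least 5 FPKM, and 0 to 61 with a library left out (61 without JQ1 library 2). The 108 calls in CD45-negative cells became 59 with a pseudocount of 0.1, 33 with no filter, 246 with array weights, 65 with no trend and 1 with a single value per title code, and ranged over 1 to 235 with a library left out, the lowest without JQ1 plus anti-PD-L1 library 1 and the highest without JQ1 plus paclitaxel library 3. The cause of these shifts was not tested.

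Among the named genes followed across settings, the direction of 15 in CD45-positive cells turned in some setting. With depth as a covariate the log2 difference became 0.0808 for Tnf, -0.44 for Tubb4b, -0.34 for Sesn2 and -0.22 for Adgre1, after quantile normalisation it became 0.0429 for Tnf, -0.0461 for Cdh5 and 0.0768 for Csf1r, and after median-ratio scaling -0.046 for Tubb4b. With a library left out the differences ranged over -0.34 to 1.66 for Gbp3, -0.98 to 0.70 for Tnf, -0.33 to 0.40 for Tubb4b, -1.38 to 1.27 for Krt8, -0.0756 to 0.70 for Il2rb, -0.0047 to 1.43 for Pdcd1, -0.48 to 0.33 for Hexim1, -0.36 to 1.76 for Cd274, -0.0364 to 0.61 for Ptprc, -0.0492 to 0.28 for Adgre1, -0.0564 to 0.10 for Cdh5, -2.34 to 0.0226 for Il1b, -0.61 to 0.39 for Csf3r, -0.24 to 0.41 for Sesn2 and -0.21 to 0.001 for Csf1r. The other genes so followed kept their direction in every setting run. Flt3, Xcr1, Bst2 and Cxcl10 were not followed in this way. No paired analysis was possible because the labels give the groups no shared replicate numbers.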
